A study of Mus musculus with 2 samples.

Results

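Proliferating keratinocytes were described in 2 sections of mouse skin, as epithelial cells caught with RNA of the cell cycle. A cell was taken as proliferating when it held at least 3 transcripts of Mki67, Top2a and Cdk1 together, and as a keratinocyte when it held at least 3 transcripts of Krt5, Krt15, Col17a1 and Dsg3 together. Of 92679 segmented cells, 647 met both conditions and also held at least 20 transcripts in all, 316 in WT and 331 in Utx-cKO. The other 23146 keratinocytes, 11331 in WT and 11815 in Utx-cKO, served as the comparison.

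Both sections came from whole skin of female B6/129 mice after normal development with no treatment. One was a WT control. The other, Utx-cKO, carried a Krt14-Cre deletion of Kdm6a (Utx), the gene of a histone H3 lysine 27 demethylase. The Cre acts in tissues that express keratin 14, so cells of the dermis are not targeted. Each 5 µm section of fixed, paraffin-embedded skin was imaged by Xenium, which reads out individual transcripts where they lie in the tissue, with a custom panel of 480 genes. Each section held 4 separate strips of tissue, numbered here by their number of cells. The sources used here do not give the ages of the mice, or the animals and skin sites behind the strips. The cells of the WT section held 2645045 decoded gene transcripts and those of Utx-cKO 2442196, of which the proliferating keratinocytes held 41135 and 36418. With 1 section per group nothing could be tested. Intervals are exact 95% intervals for counting error alone, and neither cells nor strips are replicates.

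The epidermis is renewed by division in its basal layer, where cells anchored by hemidesmosomes express keratins 5, 14 and 15. Daughter cells leave the layer, switch to keratins 1 and 10 and later to loricrin and filaggrin family proteins. Hair follicles and sebaceous glands have dividing cells of their own, among them the basal cells of the gland that fill with lipid as they mature. Mki67 coats mitotic chromosomes, Top2a untangles DNA before chromosomes separate, and Cdk1 is the kinase that drives entry into mitosis.

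The gate picked cells by 7 genes, so the levels of those genes are a description. Mki67 was found in 298 of 316 proliferating keratinocytes of WT (94.3%) and in 303 of 331 of Utx-cKO (91.5%). Top2a was found in 83.2% and 86.4%, and Cdk1 in 52.5% and 54.7%. In WT 133 cells carried transcripts of all 3 genes, and in Utx-cKO 136. The median sum of the 3 genes was 4 in both sections, and the highest was 16 in WT and 14 in Utx-cKO. Just inside the threshold, 111 and 116 cells had a sum of exactly 3. Just outside it, 237 and 248 keratinocytes had a sum of exactly 2. On the keratinocyte side of the gate, the median sum of Krt5, Krt15, Col17a1 and Dsg3 was 13 in WT and 9 in Utx-cKO, against 10 and 8 in the other keratinocytes. Of the proliferating cells 45 and 64 had a keratinocyte sum of 3 to 5, and 17 and 24 of exactly 3, and 10 and 20 cells with a sum of 2 passed the cell cycle condition. The proliferating cells were deeper, with a median of 115 and 100 transcripts per cell against 71 and 59.

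Genes of the cell cycle share promoter elements that keep them silent in resting cells. The best known is the CHR, with the core TTTGAA, which often stands near CCAAT boxes bound by NF-Y. To show how these elements sit before the genes of the gate and before Cdc20, an activator of the complex that ends mitosis, the 200 bases before each start site are printed 5′ to 3′ from RefSeq (GRCm38.p6), with TTTGAA and CCAAT on either strand in capitals. All 4 lie on the minus strand: Mki67 at chr7:135716380-135716579, Top2a at chr11:99024190-99024389, Cdk1 at chr10:69352913-69353112 and Cdc20 at chr4:118437344-118437543.
Mki67: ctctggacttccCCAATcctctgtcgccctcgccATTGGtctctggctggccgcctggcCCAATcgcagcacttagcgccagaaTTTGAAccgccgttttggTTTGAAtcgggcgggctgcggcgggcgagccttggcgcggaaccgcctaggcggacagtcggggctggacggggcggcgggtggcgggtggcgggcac
Top2a: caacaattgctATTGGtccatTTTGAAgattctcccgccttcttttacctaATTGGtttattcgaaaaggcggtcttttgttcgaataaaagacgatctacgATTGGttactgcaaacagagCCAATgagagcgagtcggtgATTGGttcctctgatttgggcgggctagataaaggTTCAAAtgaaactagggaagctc
Cdk1: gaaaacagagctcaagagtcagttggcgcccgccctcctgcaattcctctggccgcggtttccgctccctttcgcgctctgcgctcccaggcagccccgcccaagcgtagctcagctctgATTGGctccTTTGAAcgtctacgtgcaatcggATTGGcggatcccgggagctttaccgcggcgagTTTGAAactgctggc
Cdc20: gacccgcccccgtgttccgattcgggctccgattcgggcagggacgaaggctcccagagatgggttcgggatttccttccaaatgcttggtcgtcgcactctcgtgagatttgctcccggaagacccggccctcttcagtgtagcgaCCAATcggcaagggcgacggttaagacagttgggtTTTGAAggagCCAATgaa
The printed stretch of Mki67 held 2 copies of TTTGAA and 3 of CCAAT, that of Top2a 2 and 5, that of Cdk1 2 and 2, and that of Cdc20 1 and 2, with no base shared between motifs. Among all 32851 RefSeq windows of 250 bases before a start, 15.99% held TTTGAA, 33.85% held CCAAT and 5.549% held both. Of 12 cell cycle genes that were looked up, 10 had a window, and 6 of these held both motifs: Mki67, Top2a, Cdk1, Cdc20, Hmgb2 and Ube2c. A match of letters is a description and shows no binding.

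Whether the gate found cycling cells was checked with 6 cell cycle genes it did not use. Birc5 and Cenpf act in chromosome separation, Cdc20 and Ube2c in the degradation that ends mitosis, and Rrm2 and Tyms make the building blocks of DNA. At least 1 transcript of these was found in 243 of 316 proliferating keratinocytes of WT (76.9%) and in 259 of 331 of Utx-cKO (78.2%), against 13.5% and 13.3% of the other keratinocytes. Birc5 climbed with the sum of the gate genes, also below the threshold. In WT the level of Birc5, as counts relative to all panel transcripts of the cells (CPM), was 291 at a sum of 0, 546 at 1, 1255 at 2, 3739 at 3 and 7783 at 8 or more. In Utx-cKO it was 413 at 0, 816 at 1, 2148 at 2, 4319 at 3 and 6554 at 8 or more. Keratinocytes with a sum of 2, which the gate left out, stood between cells with a sum of 0 and proliferating cells in this gene. Cenpf was at 483 CPM at a sum of 1 and at 7783 CPM at 8 or more in WT, and reached 7828 CPM in Utx-cKO. Ube2c, on few transcripts, was at 430 CPM at a sum of 2 and 187 CPM at 3 in WT, and at 403 and 353 CPM in Utx-cKO. Tyms was 1028 CPM at a sum of 3 and 1749 CPM at 8 or more in WT, and 1234 and 1274 CPM in Utx-cKO. The phase of the cells could not be read from these genes, because few of their transcripts were found per cell. In WT the mean per proliferating keratinocyte was 0.127 for Ube2c and 0.614 for Cenpf, so an absent transcript does not show an absent phase. Rrm2 or Tyms without the 3 late genes marked 61 and 57 cells, Ube2c, Cdc20 or Cenpf without the 2 synthesis genes marked 89 and 99, both kinds were present in 55 and 55, and neither in 111 and 120.

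**Figure D1:**
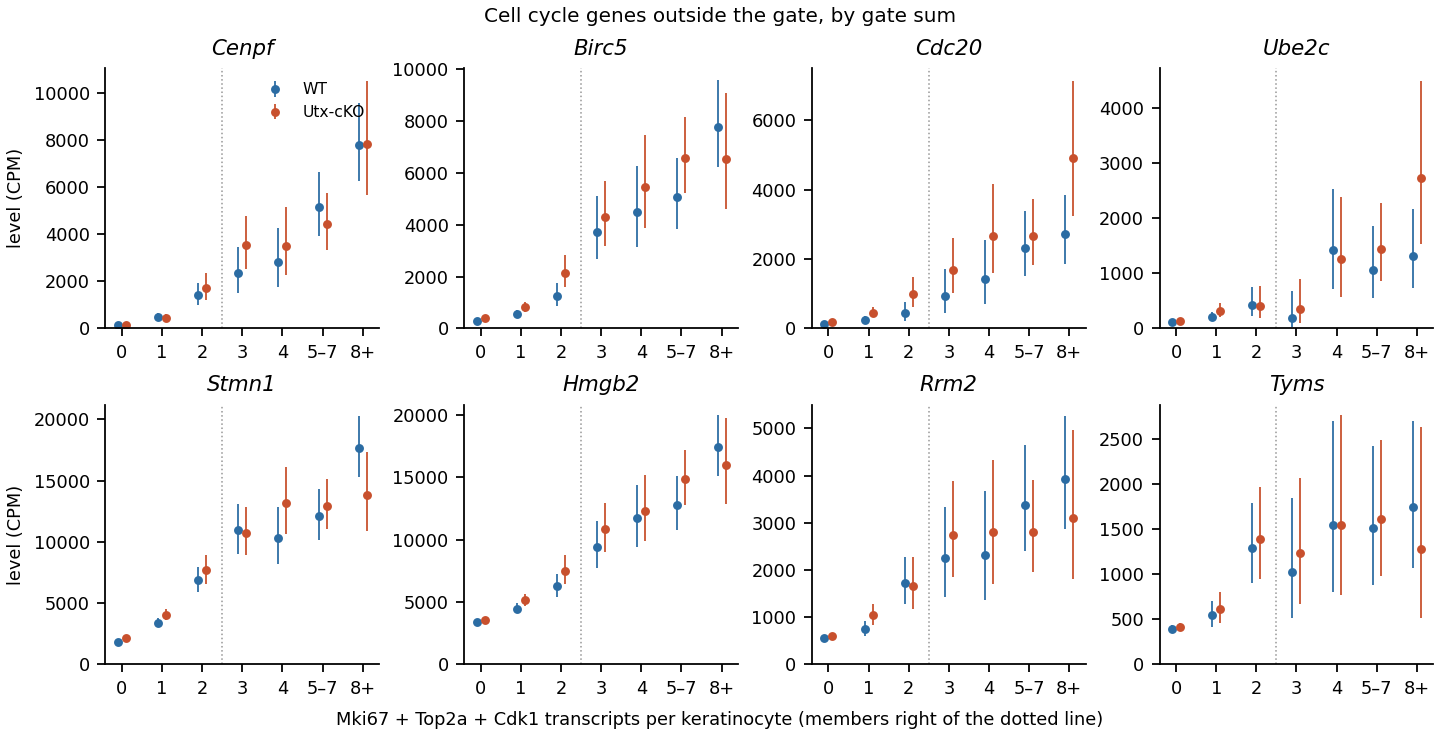
Level (CPM, with exact 95% counting intervals) of 8 cell cycle genes outside the gate, in keratinocytes grouped by their sum of Mki67, Top2a and Cdk1, for WT (blue) and Utx-cKO (orange). Cells right of the dotted line are the proliferating keratinocytes, and Birc5 climbed in WT from 291 CPM at a sum of 0 to 7783 CPM at 8 or more.

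Proliferating cells made up 2.71% of keratinocytes in WT (316 of 11647, interval 2.43% to 3.02%) and 2.73% in Utx-cKO (331 of 12146, 2.44% to 3.03%). The sections differed by less than the counting error in this share. After each cell was thinned to 40 transcripts, with shallower cells left out (8845 of the kept cells in WT and 14029 in Utx-cKO), the shares were 0.945% (0.745% to 1.18%) and 1.10% (0.880% to 1.37%). To see how often stray transcripts might reach the cell cycle condition, it was applied to granular cells. It was passed by 11 of 498 granular cells of WT (2.21%) and 1 of 272 of Utx-cKO (0.368%). These are end-stage cells with at least 20 transcripts of Flg2, Hrnr, Lor, Casp14 and Cdsn, and their median depth was 184 and 173 transcripts. The interval of the granular share in WT, 1.11% to 3.92%, holds the WT proliferating share of 2.71%. That in Utx-cKO, 0.00931% to 2.03%, lies below 2.73%. Granular cells were not kept apart from keratinocytes, so those that passed can be among the proliferating ones. They were also deeper than the median keratinocyte, which held 72 and 60 transcripts. The comparison therefore cannot tell what part of either proliferating share comes from stray transcripts. Outside the keratinocytes, 227 of 21616 kept cells of WT and 157 of 25249 of Utx-cKO passed the cell cycle condition (1.05% and 0.622%). Keratinocytes were thus 58.2% and 67.8% of all cells that passed. No keratinocyte held 3 counts of the negative control probes, which had 5 and 8 counts in all proliferating keratinocytes.

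Within each section the share differed between strips. In WT it was 4.48% in strip 1, 2.26% in strip 2, 1.82% in strip 3 and 1.38% in strip 4. In Utx-cKO it was 3.28% in strip 1, 3.11% in strip 2, 2.49% in strip 3 and 1.12% in strip 4. Depth ran along with it: the median keratinocyte held 95, 83, 61 and 47 transcripts in the WT strips and 73, 56, 58 and 46 in those of Utx-cKO. Thinned to 40 transcripts, the strips lay closer, at 1.34%, 0.590%, 0.753% and 0.993% in WT and 1.09%, 1.26%, 1.13% and 0.801% in Utx-cKO. Strip 1 of WT held 169 of its 316 proliferating keratinocytes, and without that strip the WT share was 1.87%.

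Each keratinocyte was given a place by its neighbours within 50 µm, leaving out the cell itself. For Lhx2, a transcription factor of follicle stem cells, and Krt77, a keratin of the suprabasal epidermis, the neighbours' level was divided by its average. That average was taken over the keratinocytes of both sections together. A cell was put on the follicle side where the relative Lhx2 was higher, and on the surface side where the relative Krt77 was higher. In WT 116 proliferating keratinocytes lay on the follicle side (36.7%, 31.4% to 42.3%) and 200 on the surface side (63.3%). In Utx-cKO 158 lay on the follicle side (47.7%, 42.2% to 53.3%), 171 on the surface side (51.7%), and 2 had neither gene around them above the other. The other keratinocytes were on the follicle side in 46.1% of cases in WT and 50.5% in Utx-cKO. Put the other way, 2.17% of follicle-side and 3.18% of surface-side keratinocytes proliferated in WT, and 2.58% and 2.85% in Utx-cKO. The place genes differed between sections. Around other keratinocytes the median relative Krt77 was 0.623 in WT and 0.249 in Utx-cKO, and the median relative Lhx2 0.279 and 0.377. Around proliferating cells these were 0.980 and 0.244, and 0.104 and 0.262. Within the proliferating cells both genes were at least 1.5 times lower in Utx-cKO. The part of this in the follicle-side shares was not tested.

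The follicle side was where the strips parted. Strip 1 of WT had 87 proliferating cells among 1847 follicle-side keratinocytes (4.71%, 3.79% to 5.78%), and the other 3 WT strips had 11, 10 and 8 (0.811%, 0.807% and 0.889%). In Utx-cKO strips 1 and 2 had 87 and 61 (3.73% and 2.98%), and strips 3 and 4 had 5 each (0.676% and 0.501%). The counting intervals of low and high strips did not overlap before thinning. The median follicle-side keratinocyte held 87 transcripts in strip 1 of WT and 77.5 in its strip 2. Thinned, the follicle-side shares were 1.51%, 0.291%, 0.577% and 0.175% in WT and 1.00%, 0.951%, 0 of 380 cells (which allows up to 0.966%) and 0.161% in Utx-cKO, from 1 to 21 cells a strip where any were left. Most of these intervals overlapped between low and high strips, for example 0.940% to 2.31% in strip 1 of WT, 0.188% to 1.34% in its strip 3 and 0.584% to 1.60% in strip 1 of Utx-cKO, while strip 2 of WT reached 0.849%. The surface side was more even, from 1.80% to 4.25% over the WT strips and from 1.62% to 3.46% over those of Utx-cKO, and from 0.874% to 1.88% and from 1.21% to 1.78% when thinned. Leaving out strip 1 of WT, 19.7% of the WT proliferating keratinocytes lay on the follicle side. Without strip 1 of Utx-cKO the share there was 38.0%.

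**Figure D2:**
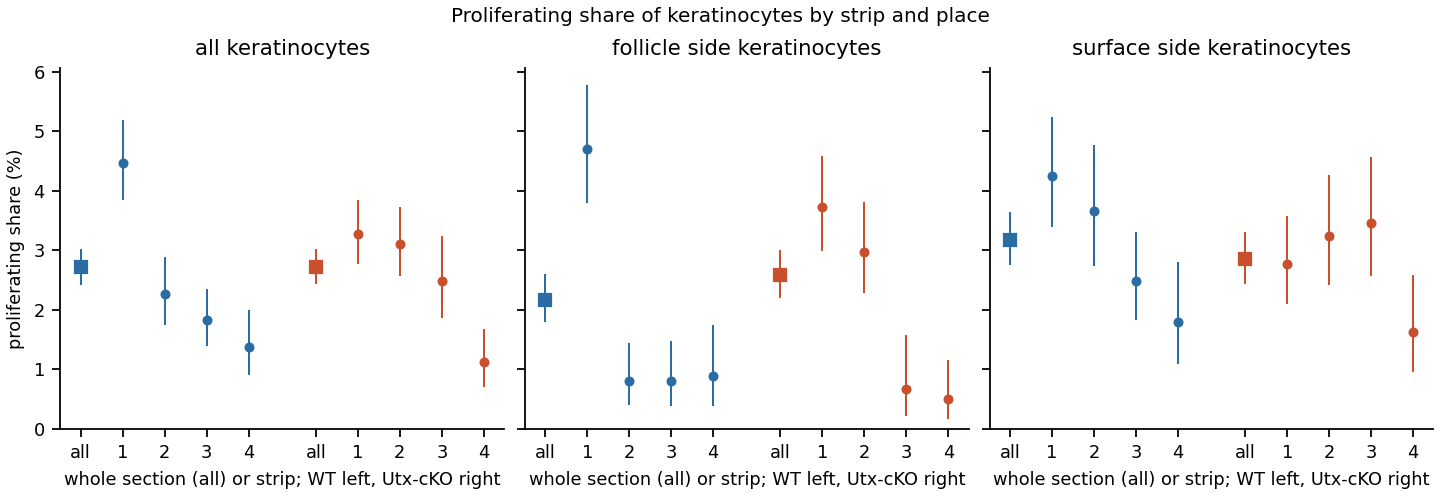
Proliferating share of keratinocytes (%, exact 95% counting intervals) in the whole section (squares) and in each strip (circles), for all keratinocytes and for those on the follicle and surface sides, in WT (blue, left) and Utx-cKO (orange, right). On the follicle side 1 WT strip and 2 Utx-cKO strips lay between 2.98% and 4.71%, and the other 5 strips between 0.501% and 0.889%.

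The neighbours of proliferating cells carried less of the genes of the follicle stem cell region. In WT the neighbours' level of Lhx2 was 1788 CPM around proliferating and 3166 CPM around other keratinocytes, and in Utx-cKO 2058 and 3237 CPM. Tbx1, another follicle stem cell factor, was at 324 and 676 CPM in WT and at 380 and 837 CPM in Utx-cKO. Krt77, pooled over all neighbourhoods like these levels, was at 17812 and 16421 CPM in WT and 13192 and 13459 CPM in Utx-cKO. By single neighbourhoods, its median relative level was 0.980 around proliferating and 0.623 around other keratinocytes in WT. In Utx-cKO that median was 0.244 and 0.249. Around the proliferating cells of Utx-cKO stood more of the duct and gland genes: Krt79, a keratin of the upper follicle, at 17659 against 11262 CPM, and Elovl6, a fatty acid elongase, at 12281 against 8995 CPM. In WT these were nearly level, at 7166 against 6653 CPM and 3348 against 3409 CPM. Keratinocytes were a smaller part of the neighbours, 52.5% against 59.9% in WT and 49.4% against 54.9% in Utx-cKO.

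**Figure D3:**
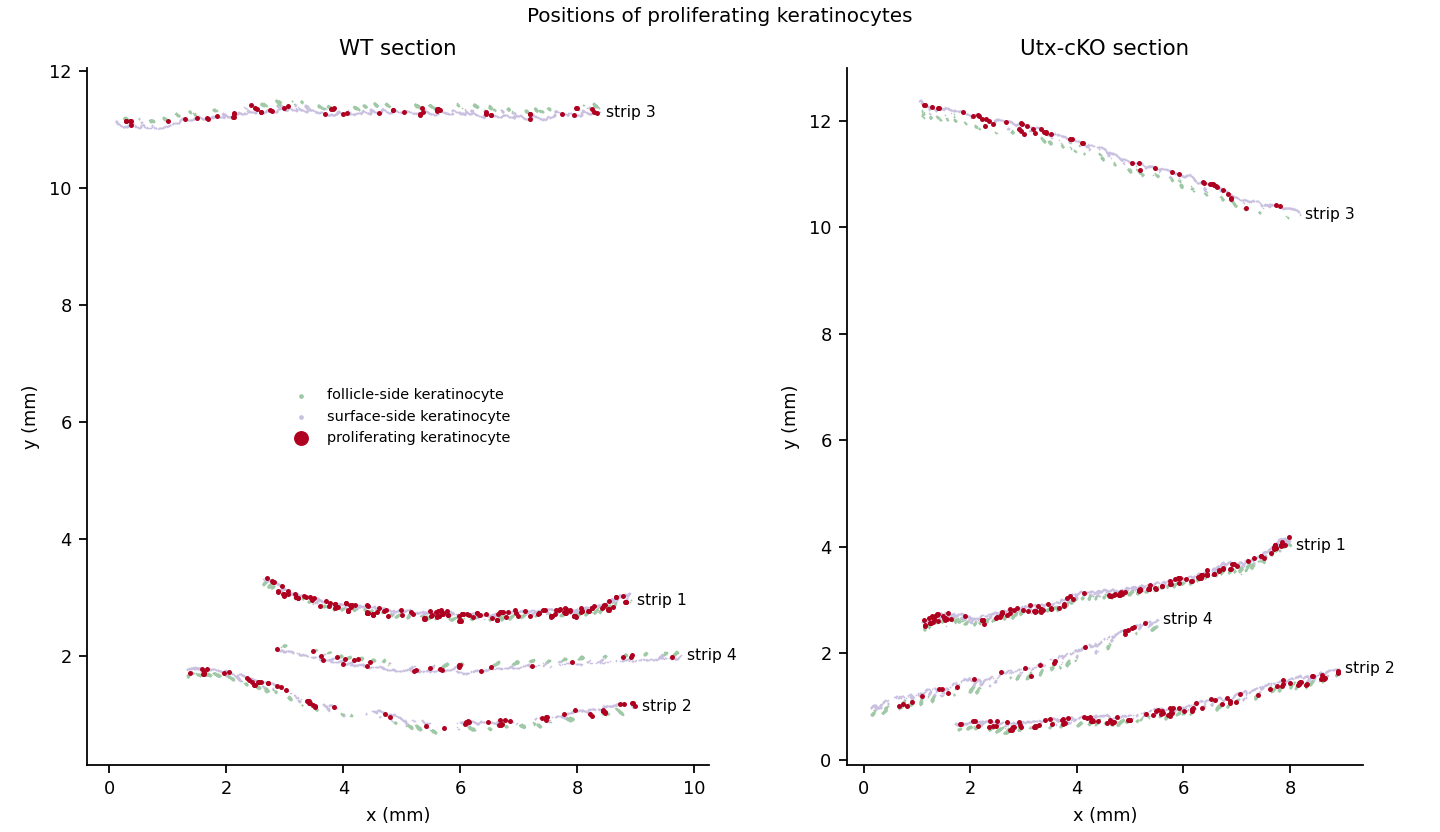
Positions (mm) of proliferating keratinocytes (red) among the other keratinocytes of the follicle side (green) and the surface side (violet) in the 4 strips of each section. Red points run along every strip and are densest in strip 1 of WT, which held 169 of the 316 of that section.

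Proliferating keratinocytes lay near one another. In WT 150 of 316 (47.5%, 41.9% to 53.1%) had another within 20 µm, against 15.1% of the other keratinocytes. In Utx-cKO 129 of 331 did (39.0%, 33.7% to 44.5%), against 14.5%. The median distance to the nearest was 24.1 µm in WT and 31.8 µm in Utx-cKO, and 68.8 and 66.3 µm from other keratinocytes. With transcripts over the nucleus alone the shares were 24.5% in WT and 27.7% in Utx-cKO, so that WT was no longer the higher. Without strip 1 of each section they were 34.0% in WT and 29.4% in Utx-cKO. The matching shares of other keratinocytes in these settings are not given here. Joined at 50 µm, the cells formed 171 patches in WT and 188 in Utx-cKO, of which 96 and 120 were single cells and 9 and 14 held 5 cells or more. The larger patches differed in what they carried. In WT, 5 of the 9 lay wholly on the follicle side of strip 1, with no Krt77 and with 4 to 20 transcripts of Dct, a melanocyte gene. In Utx-cKO, the patches of 5 or more held 0 or 1 Dct transcript, and 12 of the 14 held at least 10 of Krt79.

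Proliferating cells were also larger in outline. The median nucleus area was 25.7 µm2 against 18.8 µm2 in WT and 27.2 µm2 against 19.4 µm2 in Utx-cKO. The median cell area was 77.0 against 59.3 µm2 and 79.5 against 59.4 µm2. Area goes with depth, and other keratinocytes weighted to the depth of the proliferating ones had median nuclei of 22.8 and 23.3 µm2, so that the ratio was 1.13 and 1.17 in place of 1.37 and 1.40.

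The RNA of proliferating keratinocytes was compared with that of the other keratinocytes in each section, leaving out the 7 gate genes. A gene counted as different when its level was at least 1.5 times apart in the same direction in both sections. Of 192 genes with enough counts, 24 were higher (12.5%) and 20 lower (10.4%) in proliferating cells, 22.9% in all. Without strip 1 of WT only 113 genes could be compared, 12 of the 24 and 9 of the 20 among them, and these were past the rule in 12 and 7 cases. Without strip 1 of Utx-cKO 119 could be compared, with 10 of 12 and 8 of 8 past it. Cenpf was highest, and stood at 4716 CPM against 204 CPM in WT (194 transcripts in the proliferating cells) and at 4476 against 218 CPM in Utx-cKO (163 transcripts), ratios of 23.1 and 20.5 times. Birc5 was 15.4 and 11.3 times as high, at 5373 against 348 CPM and 5657 against 502 CPM. Cdc20 was at 1896 against 153 CPM and 2691 against 224 CPM. The lowest counting bound among these 6 log2 ratios was 3.22.

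Of the 13 measured genes of the other cell cycle list, 10 had enough counts, 7 were higher and none was lower, with a median log2 ratio of 2.00 against -0.07 over all genes compared. These 7, with their mean log2 ratio of both sections, were Cenpf (4.45), Birc5 (3.72), Cdc20 (3.61), Stmn1 (2.45), Rrm2 (2.18), Hmgb2 (1.83) and Tyms (1.68). Stmn1 loosens microtubules for the spindle, and Hmgb2 is a DNA-bending protein. Ube2c had too few transcripts for the rule, 40 and 46, and a mean log2 ratio of 2.89. Trp53 was at 0.45, Myc at -0.43 and Ccnd1, the cyclin of early G1, at -0.55. Rgcc had 19 and 11 transcripts, and Cdkn2a none.

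Of 9 compared chromatin regulators 1 was higher and none lower, with a median of -0.01. Of genes outside both lists, H2afx, the histone variant marked at DNA breaks, was 7.40 and 7.42 times as high, with 75 and 67 transcripts. Nsd2, which methylates histone H3 at lysine 36, was at a mean log2 ratio of 1.63, the nucleosome-binding protein Hmgn2 at 1.60, and Ezh2 at 1.54. Ezh2 places the H3 lysine 27 methyl marks that Kdm6a takes off, and it was the chromatin regulator past the size rule. It stood at 4692 CPM against 1493 CPM in WT and at 4311 against 1593 CPM in Utx-cKO. Kdm6a itself was at 0.21 and Kdm6b at -0.64.

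Of 8 compared sebaceous and lipid synthesis genes, 5 were higher and none lower, with a median of 0.80: Cidea (1.23), Elovl6 (1.16), Elovl5 (0.99), Scd1 (0.93) and Fasn (0.67). Cidea coats lipid droplets, Fasn makes fatty acids, the elongases lengthen them and Scd1 desaturates them. Against other keratinocytes weighted to the same depth these were smaller, at 0.70, 0.60, 0.39, 0.49 and 0.33, so that Elovl5, Scd1 and Fasn fell short of 1.5 times on average. Cenpf was at 4.68 under that weighting. Weighted instead to the same place they were 1.34, 1.22, 1.11, 0.98 and 0.70. Fa2h, which makes hydroxylated fatty acids for sphingolipids, was at 1.58. Akr1c18, a hydroxysteroid dehydrogenase, was at 1.30, Pttg1 (securin) at 1.49 and Psat1, of serine synthesis, at 0.75.

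Of the 20 lower genes, Serpinb11, a serpin, was lowest at -2.95, with 438 CPM against 3638 CPM in WT and 439 against 3138 CPM in Utx-cKO. Postn, a matrix protein, was at -1.55, Lhx2 at -1.54, the Wnt antagonist Sfrp1 at -1.53, and Id4, an inhibitor of helix-loop-helix factors, at -1.44. Lhx2 was at 1507 against 3356 CPM in WT and at 988 against 3766 CPM in Utx-cKO, and its mean log2 ratio was -2.95 without strip 1 of WT. Weighted to the same place, these 5 genes were still at -2.74, -1.38, -1.34, -1.40 and -1.37. Aqp3, a water and glycerol channel of the basal epidermis, was at -1.34, Igfbp3, a binder of insulin-like growth factors, at -1.27, the chaperone Cryab at -1.24, the actin regulator Enah at -1.10 and the matrix protein Aspn at -0.89. The desmosomal cadherin Dsc1 was at -1.07 and Lce1m, of the cornified envelope, at -0.94. Of 3 compared genes of the follicle stem cell and outer root sheath list 1 was lower, Lhx2 (median -0.43). Of 11 compared suprabasal genes 2 were lower and none higher (median -0.57), and of 10 genes of the granular and cornified layer 1 was higher, Sprr2a2, and 1 lower, Cdsn (median -0.34). Krt1 was at -0.71 and Krt77 at -0.50, both past 1.5 times in Utx-cKO alone. Of 5 basal genes outside the gate, none passed in either direction (median -0.13), with Itgb1 at 0.18 and Dst at -0.62.

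**Figure D4:**
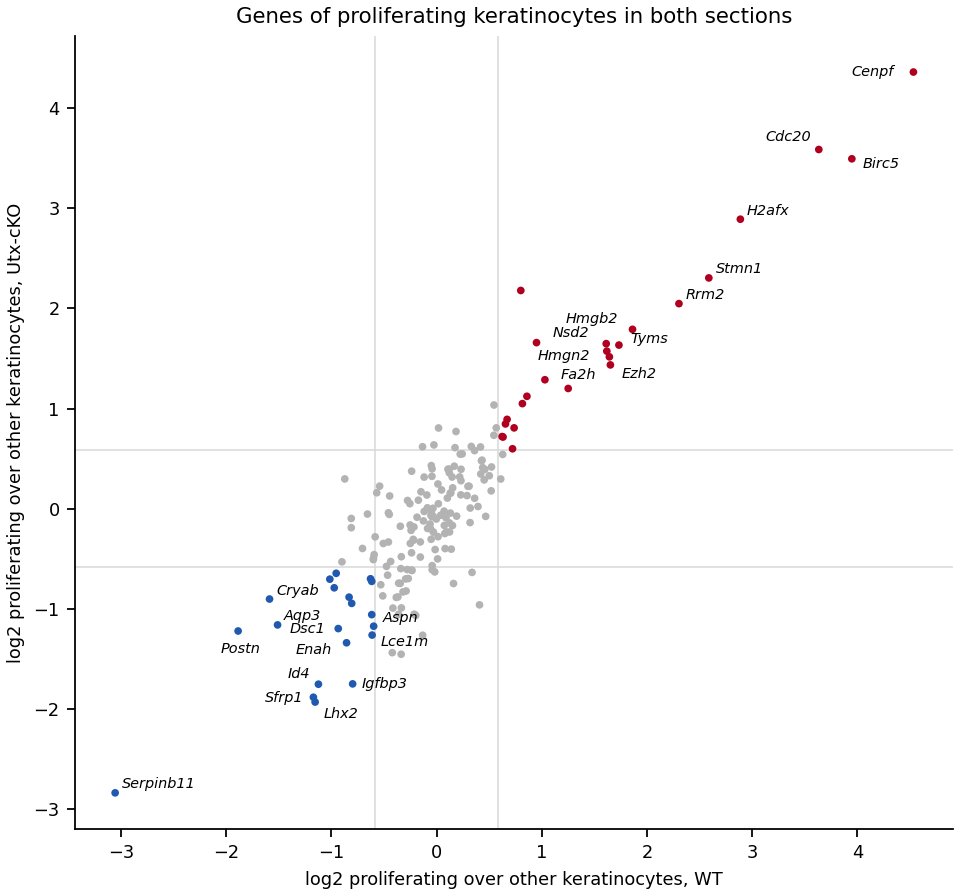
Log2 ratio of proliferating over other keratinocytes in WT (x axis) and Utx-cKO (y axis) for the 192 genes compared, without the 7 gate genes. Grey lines mark 1.5-fold, red and blue points are the 24 genes higher and 20 lower in both sections, and the named genes run from Serpinb11 at -2.95 to Cenpf at 4.45 on average.

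Transcripts of other cell types were looked for in the proliferating keratinocytes. Of the melanocyte genes Dct, Pmel and Mlana, 18 cells of WT (5.70%) and none of Utx-cKO held at least 3 transcripts, against 1.24% and 0.965% of the other keratinocytes. All 18 lay on the follicle side of strip 1, and their median keratinocyte sum was 14. At least 3 transcripts of Cd3d, Cd3e and Cd3g were found in 8 and 3 cells (2.53% and 0.906%), against 1.63% and 0.550%. Fibroblast genes reached 3 transcripts in 6.01% and 2.72%, against 3.41% and 1.73%. Macrophage genes did so in 0 and 1 cells, and endothelial genes in none. A fixed count is easier to reach in deeper cells, and the proliferating ones were deeper. As levels, fibroblast genes were at 4279 against 4139 CPM in WT and 2581 against 3171 CPM in Utx-cKO. The T cell genes were at 1580 against 1735 CPM and 961 against 974 CPM, and the melanocyte genes at 4643 against 1363 CPM and 357 against 1465 CPM. The part of these transcripts in the values given here was not tested, apart from leaving out the cells with 3 or more melanocyte or T cell transcripts, 26 in WT and 3 in Utx-cKO. Without them 27 genes were higher and 16 lower in proliferating cells, and 31 higher and 32 lower in Utx-cKO.

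Surface-side and follicle-side proliferating cells were set against each other, with the same size rule in both sections, a comparison added after the data were seen. Of 153 genes with enough counts, 25 were higher on the follicle side (16.3%) and 26 on the surface side (17.0%), 33.3% in all. The place came from the neighbours and not from the cells' own transcripts, but other proliferating cells were among the neighbours. Lhx2 and Krt77 set the place, so their own levels on either side partly restate the rule. Krt77 is among the suprabasal genes counted below as higher on the surface side. On the surface side 60.0% of cells in WT and 43.9% in Utx-cKO held at least 3 transcripts of Krt1 or Krt77, against 56.2% and 52.1% of other surface-side keratinocytes. The counting interval of Utx-cKO, 36.3% to 51.6%, lay below the share of the others there. At least 3 transcripts of Flg2, Hrnr or Lor were held by 38.5% of surface-side proliferating cells in WT and 21.6% in Utx-cKO. Among other surface-side keratinocytes these shares were 37.9% and 27.2%. Depth, which was higher in the proliferating cells, was not matched in these shares. Krt1 had 294 transcripts on the surface side and 1 on the follicle side in WT, and 237 and 1 in Utx-cKO. Its log2 ratios of follicle over surface were -7.39 and -7.98, and other keratinocytes had nearly the same, -7.37 and -8.18. Serpinb2, a serpin of stressed and differentiating keratinocytes, had 113 and 1 transcripts in WT and 99 and 9 in Utx-cKO, log2 ratios of follicle over surface of -6.01 and -3.55, where other keratinocytes had -0.48 and -0.79. Of the suprabasal list 6 of 9, and of the granular and cornified list 6 of 9, were higher on the surface side. Of 8 compared basal genes, among them the gate genes Krt5 and Krt15, 2 were higher there, Itga6 (-1.31) and the gate gene Col17a1 (-0.99). None was higher on the follicle side, with Itgb1 at 0.45 and Lamb3 at 0.34.

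On the follicle side the sebaceous and lipid list was higher in 7 of 7 compared genes, with a median log2 ratio of 2.03 against 0.04 over all 153 genes. Cidea was at 4811 against 535 CPM in WT and 5126 against 968 CPM in Utx-cKO, and Elovl5 at 11292 against 841 CPM and 8170 against 2392 CPM. Fa2h, Akr1c18, Elovl6 and Scd1 were at mean log2 ratios of 2.44, 2.35, 2.10 and 2.03, and Krt79 at 1.37. Other keratinocytes parted by place in the same direction in the genes that follow. Their log2 ratios in WT and Utx-cKO were 2.47 and 1.78 for Cidea, 2.44 and 1.60 for Elovl5 and 2.32 and 1.94 for Fa2h. For Akr1c18 they were 1.02 and 1.28, for Elovl6 0.93 and 1.30 and for Krt79 0.17 and 0.34. At least 3 transcripts of Cidea, Elovl3, Elovl6, Fasn and Scd1 together were held by 34 of 116 follicle-side proliferating cells in WT (29.3%, 21.2% to 38.5%) and by 53 of 158 in Utx-cKO (33.5%, 26.2% to 41.5%), against 6.79% and 7.01% of other follicle-side keratinocytes. These shares were not matched for depth, and proliferating keratinocytes were deeper, with a median of 115 and 100 transcripts against 71 and 59. In Utx-cKO 44 of the 53 lay in strip 1. Without strip 1 of each section the shares were 7 of 29 in WT (24.1%) and 9 of 71 in Utx-cKO (12.7%, 5.96% to 22.7%), against 4.13% and 2.88% of the others. None of the cells with lipid transcripts was among the 18 cells with melanocyte transcripts. Lhx2 or Tbx1 was found in 45 (38.8%) and 30 (19.0%) of the follicle-side proliferating cells, against 43.4% and 39.8% of the others. Of the 45 in WT, 42 lay in strip 1, and without that strip 3 of 29 did so (10.3%, 2.19% to 27.4%), against 44.6% of the others. At least 3 transcripts of Krt79 were held by 17.2% in WT and 36.1% in Utx-cKO, against 8.02% and 9.76%, and of Krt17 by 16.4% and 42.4%, against 16.8% and 20.6%. Depth was not matched in these shares either. None of 9 other cell cycle genes was past the rule in both sections, and the lowest and highest were Cdc20 at -0.19 and Rrm2 at 0.86. Rrm2 was at 1.15 (0.62 to 1.69) in WT and at 0.56 in Utx-cKO.

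The proliferating keratinocytes of Utx-cKO were then compared with those of WT. Of 227 genes with at least 50 transcripts, 27 were at least 1.5 times higher in Utx-cKO (11.9%) and 40 lower (17.6%), 29.5% in all, with a median of -0.03. None of the 11 compared genes of the other cell cycle list was among them, and they ran from -0.51 for Ccnd1 to 0.57 for Myc, with Cdc20 at 0.51, Birc5 at 0.07, Cenpf at -0.08, Stmn1 at -0.06, Hmgb2 at 0.03, Rrm2 at -0.10, Tyms at -0.03, Ube2c at 0.38 and Trp53 at -0.21. Pttg1, the securin that keeps sister chromatids from parting early, is not on that list and was higher (1.23). The gate genes, whose sum chose the cells in both sections, were at -0.03 for Mki67, 0.22 for Top2a and 0.11 for Cdk1, which is a description of the choice. Kdm6a was at 3817 CPM in WT (157 transcripts) and 2609 CPM in Utx-cKO (95 transcripts), and its log2 ratio was -0.55 (-0.93 to -0.17), and at -0.18 in the other keratinocytes. The sources used here do not say which part of the transcript the probes read, against the deleted part. By strip Kdm6a was at 4427, 2329, 3892 and 2248 CPM in WT and at 3233, 1660, 2897 and 689 CPM in Utx-cKO, so the strips overlapped.

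The highest genes of Utx-cKO were Gsdmc, a pore-forming gasdermin, and Akr1c18. Gsdmc had 9 transcripts in WT and 54 in Utx-cKO, which gives 2.76 as log2 ratio (1.73 to 3.96), and of 1.69 without strip 2 of Utx-cKO, which held 36 of the 54. Akr1c18 had 65 and 382, a ratio of 2.73 (2.35 to 3.13), and 2.02 in the other keratinocytes. Its strips overlapped, at 201, 2207, 1862 and 13939 CPM in WT and 13314, 9404, 1874 and 17906 CPM in Utx-cKO, and the ratio was 1.51 without strip 1 of WT and 3.59 without its strip 4. Small proline-rich genes of the cornified envelope were higher, with Sprr1a at 1.48, Sprr2a3 at 1.38, Sprr2a2 at 1.37 and Sprr2a1 at 1.17. These Sprr2a copies are near-identical genes, and how far the probes part them is not known here. Of the Sprr2a2 transcripts of Utx-cKO, 91 of 158 lay in strip 3. Without that strip Sprr2a3, Sprr2a2 and Sprr2a1 were at 0.37, 0.39 and 0.57, short of the rule. Tap2, of antigen loading, was at 1.25, and at 0.77 without strip 2 of Utx-cKO. Krt79 was at 1.29, with 252 transcripts in WT and 546 in Utx-cKO, and at 0.63 in other keratinocytes, and at 0.89 without strip 1 of WT. Pttg1 was at 1.23 (0.80 to 1.67), while in other keratinocytes it was at -0.15, and without strip 1 of WT it was at 0.59. Its strips overlapped, at 1046, 2452, 1523 and 5845 CPM in WT and 3452, 5716, 1363 and 5510 CPM in Utx-cKO. The difference between the 2 kinds of keratinocyte was not tested.

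Among the genes lower in Utx-cKO, Igfbp3 had 109 transcripts in WT and 29 in Utx-cKO, and its log2 ratio was -1.73 (-2.38 to -1.13), and -0.78 in other keratinocytes. Lor, the loricrin gene, was at -1.38 with 197 and 67 transcripts, the lipoxygenase Aloxe3 at -1.37 with 38 and 13, Hal, which makes urocanic acid, at -1.36, and Flg2 at -1.13 with 403 and 163 transcripts. Without strip 3 of Utx-cKO Lor was at -1.98 and Hal at -2.49, and without its strip 1 Hal was at -0.78. In other keratinocytes Lor was at -0.36 and Flg2 at -0.55. Among surface-side proliferating cells alone Lor was at -0.95 and Flg2 at -0.84. On the follicle side Flg2 was at 0.78, on 7 and 15 transcripts. Col6a1 was at -1.43 and Fn1, fibronectin, at -1.31, the decoy receptor Il1r2 at -1.23, the chromatin remodeller Chd3 at -1.16 and the protease Htra1 at -1.12. Chd3 and Fn1 were at 0.21 and 0.27 in other keratinocytes. Fn1 was at -4.23 on the follicle side, with 45 and 3 transcripts, and at 0.39 on the surface side, with 25 and 22. Of the fibroblast markers, Pdgfra was at -1.25 with 43 and 16 transcripts, and at 0.52 without strip 1 of WT. The summed level of 5 fibroblast genes in the proliferating cells was 4279 CPM in WT and 2581 CPM in Utx-cKO, and Pdgfra in their neighbours was at 4036 and 1996 CPM. Of 3 compared genes of the fibroblast list 1 was higher, Postn at 0.77, and 1 lower. The part of fibroblast RNA in these values was not tested.

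Counted by list, the granular and cornified genes went both ways, with 4 of 13 higher and 5 lower. Of 12 suprabasal genes 3 were lower and none higher, with Dsg1a at -0.69. Of 9 basal genes 2 were lower: Dst, a hemidesmosome linker, at -0.82 with 851 and 426 transcripts, and the laminin gene Lamb3 at -0.59. The basal genes include Krt5, Krt15 and Col17a1 and the suprabasal genes Dsg3, whose sum chose the cells in both sections. None of these 4 gate genes was past the rule. Of 10 lipid genes 3 were higher, led by Elovl6 at 1.08, whose direction turned without strip 1 of Utx-cKO (-0.90). None of 9 chromatin regulators passed, with Kmt2b highest at 0.18. Dct was at -4.18, with 143 and 7 transcripts. Of the 143, 141 lay in strip 1 of WT, and without that strip the ratio was 0.65. No gene of the 227 had all 4 strips of Utx-cKO above or below all 4 of WT. Without strip 1 of WT 31 genes were higher and 22 lower, and of the 27 and 40 only 14 and 14 were still past the rule. The genes that fell short without that strip included Sprr2a2 (0.50), Sprr2a1 (0.44), Tap2 (0.35), Chd3 (-0.44), Col6a1 (-0.41) and Fn1 (-0.22). In the other keratinocytes, which are far more numerous, 70 of 470 genes were higher (14.9%) and 16 lower (3.40%).

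**Figure D5:**
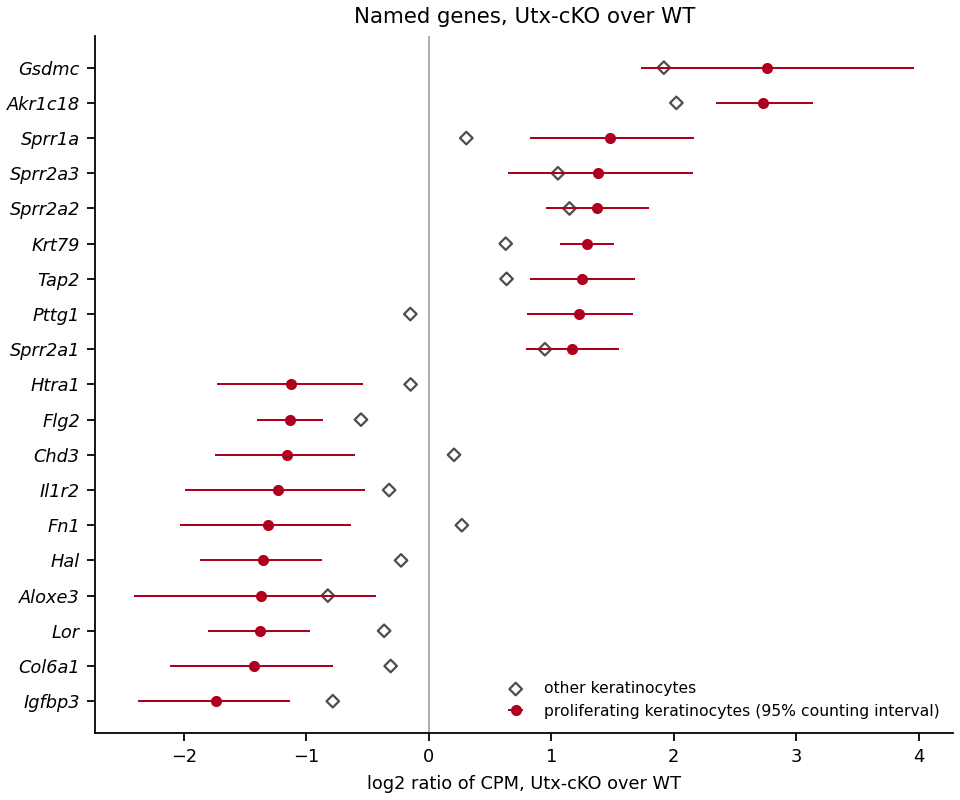
Log2 ratio of CPM, Utx-cKO over WT, of the 19 named genes, 9 higher and 10 lower, in proliferating keratinocytes (red, exact 95% counting intervals) and in the other keratinocytes (open diamonds). Pttg1, Chd3 and Fn1 lay on the other side of 0 in the other keratinocytes, at -0.15, 0.21 and 0.27.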

How the data were processed

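The sections were 1 WT and 1 Utx-cKO, each deposited as a list of decoded transcripts and a cell table. Per the labels, 5 µm sections were probed with a custom 480-gene panel. The deposited cell tables hold counts of transcripts per segmented cell, and the deposited transcript tables give each transcript a quality score of at most 40. The sources used here do not name the decoding and segmentation software. Transcripts of a score of at least 20 were counted per cell. These counts equalled the deposited counts in all cells. No doublet caller was run, and 2 cell identifiers occur in both sections.

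Counts summed over cells were scaled to the total of all panel genes (CPM) and compared as ratios, with 1.5 times as a rule of size. Against other keratinocytes a gene needed 30 expected transcripts in each section, and between sections 50 over both. Intervals are exact: Clopper-Pearson for shares, Poisson for levels and conditional binomial for ratios. The ratio script was tested on simulated data. Strips are areas of at least 1000 cells linked within 100 µm. Named genes are the 12 highest and 12 lowest against other keratinocytes. Between sections they are the 10 highest and 10 lowest whose interval leaves out 0 and whose direction holds with each strip left out, of which 1 is not reported here. Members of the gene lists are named beside them, and Elovl6 and Dct between sections were named after their values were seen. The cells and lists were chosen with earlier results of these data known. Python 3.11.15, numpy 2.4.6, scipy 1.17.1 and pandas 2.3.3 were used.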

Additional observations from a re-analysis of the deposited data

How the results depend on the processing

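With 1 section per group and no replicate numbers in the labels there was no test. No paired analysis was possible because each group had 1 section. The share in WT and Utx-cKO was 2.32% and 2.10% with scores of at least 30, 2.03% and 2.42% over the nucleus alone, 3.28% and 3.47% with at least 40 transcripts per cell, 4.75% and 4.77% with a cell cycle condition of 2, 1.24% and 1.13% with one of 5, 3.03% and 3.20% with a keratinocyte condition of 6, and 0.945% and 1.10% thinned to 40 transcripts. Leaving out each strip it ran from 1.87% to 3.04% in WT and from 2.41% to 3.05% in Utx-cKO. The follicle-side part ran from 19.7% to 41.5% and from 38.0% to 54.7% without 1 strip, was 37.2% and 55.6% in Utx-cKO at radii of 25 and 100 µm, and 23.7% and 27.2% with raw neighbour counts.

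Genes higher and lower in proliferating cells ran from 11 to 24 and from 8 to 19 without 1 strip. There were 6 lower with scores of at least 30, 12 higher and 10 lower over the nucleus, 13 lower with a condition of 2 and 11 with one of 5, 71 higher and 1 lower as mean counts per cell, which keeps the difference in depth, and 47 and 40 with no minimum. Between sections they ran from 27 to 34 and from 22 to 55 without 1 strip. There were 16 lower over the nucleus, 25 with a condition of 5, 62 as mean counts per cell, 16 in surface-side cells alone, 15 when thinned, and 47 higher and 61 lower with at least 20 transcripts. Of the genes named, Flg2 turned to 0.78 in follicle-side cells alone and Fn1 to 0.39 in surface-side cells alone. Elovl6 turned without strip 1 of Utx-cKO, and Dct and Pdgfra without strip 1 of WT, as given above. The cause of these shifts was not tested.

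The share with another proliferating cell near ran from 34.0% to 51.2% in WT and from 29.4% to 41.9% in Utx-cKO without 1 strip. It was 34.5% and 20.8% within 10 µm, against 5.35% and 4.97% of other keratinocytes. Within 40 µm it was 63.6% and 59.8%, against 31.0% and 31.6%. At 20 µm it was 36.8% and 31.2% with scores of at least 30, 24.5% and 27.7% over the nucleus, 58.8% and 56.0% with a condition of 2, 24.1% and 20.4% with one of 5, and 41.7% in WT with a keratinocyte condition of 6. The nucleus ratio was 1.13 and 1.17 against depth-weighted keratinocytes. Leaving out cells with 3 or more melanocyte or T cell transcripts, an alternative added after seeing the data, gave shares of 2.50% and 2.70%. Depth limits the genes of fewer than 50 transcripts, among them Rgcc.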
